A study of Homo sapiens with 12 samples.

Results

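The Notch genes described here are 10 receptors, ligands and targets, followed across 12 RNA-seq libraries of 2 human pancreatic cancer cell lines. They are the receptors NOTCH1, NOTCH2 and NOTCH3, the ligands JAG1, JAG2 and DLL1, and the target genes HES1, HES4, HEY1 and NRARP. The genes were chosen by name, as 10 of the 39099 genes that the deposited transcript table yields once its transcripts are summed by gene symbol. The cell lines are AsPC-1 and PANC-1, both established lines from pancreatic cancer. Cells of each line were labelled as mock, as overexpressing TAp63 or as overexpressing deltaNp63. TP63 encodes both: TAp63 has the N-terminal transactivation domain, and deltaNp63, transcribed from a promoter within the gene, lacks it. With 2 lines and 3 conditions there are 6 groups, of 2 libraries each, which the labels call biological replicates, and all libraries are stranded poly(A) libraries from total RNA. The vector, the time after its introduction and whether the cells are clones or pools are not given in the sources used here.

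Notch receptors sit in the cell membrane and are activated by ligands on a neighbouring cell. Ligand binding lets ADAM proteases and then gamma-secretase cut the receptor, and its freed intracellular part joins the DNA-binding protein RBPJ and Mastermind-like coactivators in the nucleus. Direct targets include the transcriptional repressors of the HES and HEY families and NRARP, a small protein that limits Notch signalling. In the pancreas the pathway is known for holding progenitor cells back from differentiation, and HES1 is a commonly used readout of it.

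Values are TPM, the share that a transcript takes of all transcripts in its library after scaling for length, so that levels of different genes can be set side by side. TPM keeps no read depth, and precision therefore comes from the replicates alone. TP63 checks the construct labels: it stood at 1.1 and 0.817 TPM in the AsPC-1 mock libraries, at 102 and 169.7 with TAp63, and at 245 and 350.4 with deltaNp63. In PANC-1 it stood at 0.119 and 0.0245 TPM in mock, 324 and 342 with TAp63, and 815 and 1187 with deltaNp63. Every library thus followed its label as mock or as construct. These values do not tell the 2 protein classes apart. Of the epithelial keratins, KRT8 was high in both lines, between 1566 and 3738 TPM, and KRT7 was low in both, at 9.24 to 13.1 TPM in AsPC-1 and 13.7 to 17.5 TPM in PANC-1, whereas the adhesion genes EPCAM and CDH1 were far lower in PANC-1 (42.6 to 49.5 and 2.37 to 3.74 TPM) than in AsPC-1 (1256 to 1409.7 and 81.8 to 123 TPM). Of the markers of other cell types, the leukocyte genes PTPRC, CD3E and CD14 and the endothelial genes CDH5 and VWF stayed at or below 0.49 TPM, and the fibroblast genes DCN and PDGFRB below 1 TPM. The fibroblast marker LUM was the exception, at 177 to 288 TPM in AsPC-1 and at most 0.0523 TPM in PANC-1. Replicates correlated at r = 0.987 to 0.994 across genes, and the median gene differed most between the AsPC-1 deltaNp63 replicates, by 0.211 on the log2 scale.

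Of the 10 genes, 9 entered the statistical test, for which a gene had to reach 1 TPM in 2 or more libraries. NOTCH2, JAG1, HES1, HES4 and NRARP met this filter in both lines. NOTCH3, JAG2, DLL1 and HEY1 met it only through PANC-1, so their difference between the lines is in part set by the filter. NOTCH3 reached 1 TPM in 1 mock and 2 TAp63 libraries of PANC-1, so its order of TAp63 over mock there is affected too. NOTCH1 was not tested. Only 1 of its 16 annotated transcripts, a retained-intron form, and 0 of its 5 coding ones could be paired with the table, so its value says nothing about the RNA that encodes the receptor. That transcript stood at 0.165 and 0.457 TPM in AsPC-1 mock, 0.114 and 0.172 with TAp63, and 0 and 0.258 with deltaNp63, and was listed at 0 in all 6 PANC-1 libraries.

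The sequence just upstream of 3 target genes is shown because they are the Notch targets with the highest RNA levels, and HES1 is the only one of the 10 genes whose level passed the test after a construct. RefSeq (GRCh38.p14) gives the promoter of 8 of the 10 genes, DLL1 and HEY1 having no entry. Capitals mark TGGGAA, the core of the RBPJ site, searched on both strands in the 250 bases before the start. The HES1 stretch is chr3:194135898-194136147 on the plus strand, and the NRARP stretch is chr9:137302272-137302521 on the minus strand. For HES4 only the 30 bases around its match are given, chr1:1000156-1000185 on the minus strand. All are written 5′ to 3′ on the strand of the gene.
HES1: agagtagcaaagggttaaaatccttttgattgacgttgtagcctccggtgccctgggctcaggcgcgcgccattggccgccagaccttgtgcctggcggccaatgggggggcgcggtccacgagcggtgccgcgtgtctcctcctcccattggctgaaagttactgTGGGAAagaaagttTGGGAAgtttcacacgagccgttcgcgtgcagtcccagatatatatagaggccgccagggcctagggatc
HES4: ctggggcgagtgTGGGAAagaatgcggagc
NRARP: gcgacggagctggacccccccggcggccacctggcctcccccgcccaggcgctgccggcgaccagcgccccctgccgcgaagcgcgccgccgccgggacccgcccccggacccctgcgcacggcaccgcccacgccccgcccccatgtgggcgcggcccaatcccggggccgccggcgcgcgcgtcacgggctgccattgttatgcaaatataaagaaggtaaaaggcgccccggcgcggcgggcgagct
HES1 held 2 matches, which begin 84 and 70 bases before the start, and HES4 held 1 match, which begins 76 bases before its RefSeq start. GENCODE v44 places the end of the HES4 gene on this strand at 1000172, inside the printed stretch, so for the longest annotated transcript the start lies farther upstream. The stretches of NRARP and of NOTCH1, NOTCH2, NOTCH3, JAG1 and JAG2 held none. At least 1 match occurred in 21.1% of 27305 promoters of the same length and at least 2 in 2.92%. The N box CACNAG, the element bound by HES proteins, occurred 3 times before HES1, against at least 2 matches in 6.28% of promoters and at least 1 in 32.0%. It also occurred once before NOTCH3. A match describes these letters only and says nothing of binding in these cells.

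**Figure D1:**
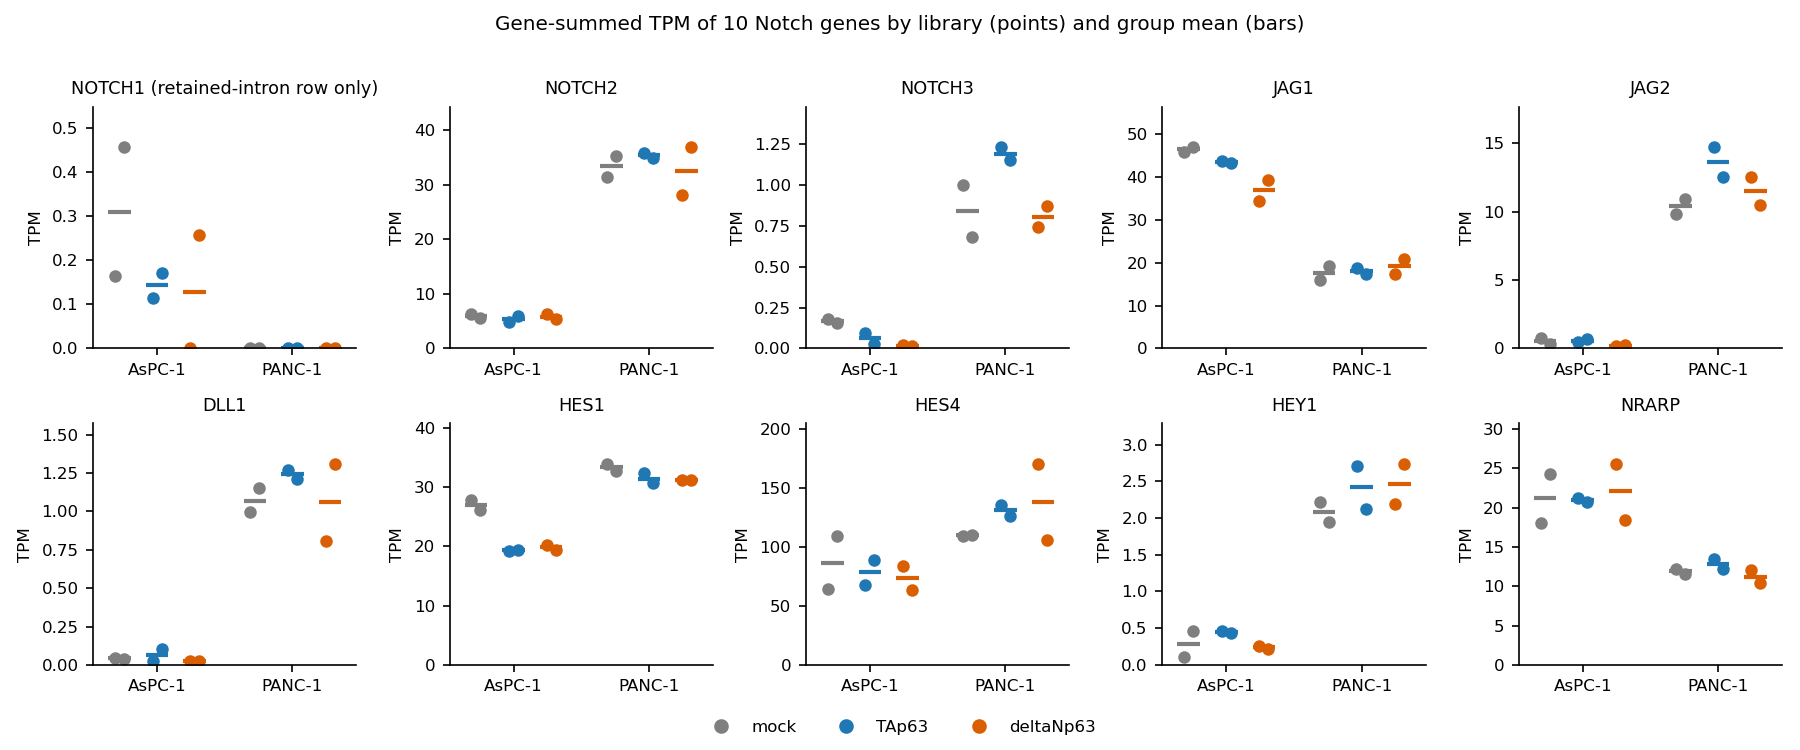
Gene-summed TPM (linear axis from 0, own scale per gene) of the 10 genes, with a point per library and a bar at the mean of the 2 libraries of a group. HES1 in AsPC-1 is lower in all 4 construct libraries than in both mock libraries, and the cell line separates NOTCH2, JAG1 and JAG2 far more than any construct does. JAG2 is under 1 TPM in every AsPC-1 library and met the filter of the test only through PANC-1.

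After either construct, 1 of the 9 genes tested changed in AsPC-1, where 0.637% of all genes tested changed with TAp63 and 7.14% with deltaNp63. In PANC-1 0 of the 9 changed, where 0.00677% and 0.0406% of all genes did. With TAp63 that share was 1 gene, the overexpressed TP63 itself, and TP63 was also among the 6 genes with deltaNp63. The change in AsPC-1 was in HES1, the repressor that is the standard Notch target, which fell to 71.5% of the mock mean with TAp63 and to 73.3% with deltaNp63. Its direction held in all 23 other settings tried for each construct, but its call was lost in 17 of them for TAp63 and in 12 for deltaNp63. The receptors, the ligands and the other 3 targets did not pass the test after any construct in either line. Between the mock libraries of the lines, where 72.5% of all genes tested differed, NOTCH2 was higher in PANC-1 and JAG1 and NRARP were higher in AsPC-1.

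Each construct was compared with mock by limma on log2(TPM + 1), with p-values adjusted by the Benjamini-Hochberg method over all 14767 genes tested and a threshold of 0.05. On this scale differences of low genes are understated. Both constructs are compared with the same 2 mock libraries in a line, so their results in that line are not independent of each other. Most genes called in AsPC-1 were lower than in mock, 0.609% of all genes tested with TAp63 and 6.51% with deltaNp63, so 1 of 9 is no result about these genes as a group. In PANC-1 the count in limma was also 0 of 9 at an unadjusted p under 0.05 with either construct. Over all 14767 genes that count was 503 with TAp63 and 345 with deltaNp63. TAp63 and deltaNp63 set against each other gave 0 of 9 in AsPC-1 and 0 of 9 in PANC-1, against 0.0203% and 0.0271% of all genes. At an unadjusted p under 0.05 the count was again 0 of 9 in each line, beside 1170 and 437 of all genes. The PANC-1 comparisons called between 1 and 6 genes of 14767, so few calls of any kind were made in that line.

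**Figure D2:**
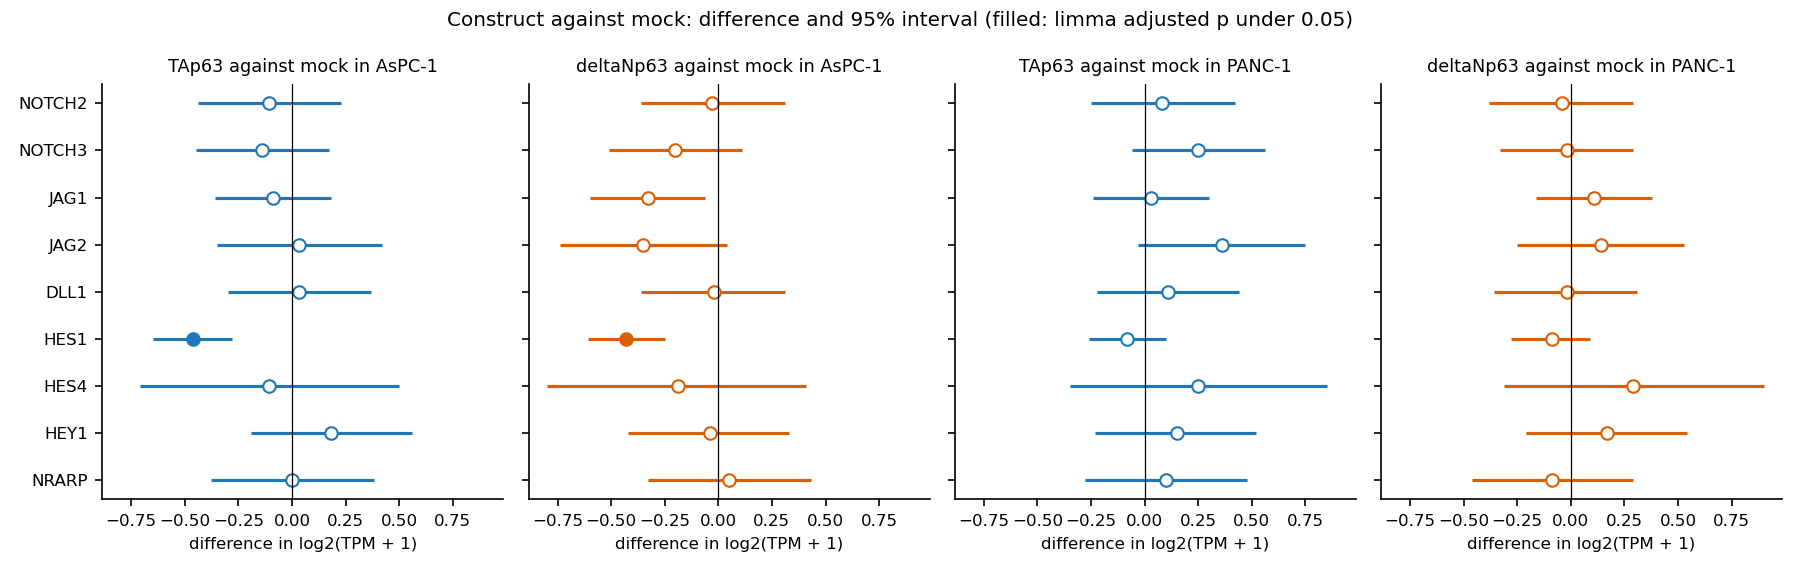
Difference from mock in log2(TPM + 1) for the 9 genes tested (point) with its 95% interval (line), by construct and cell line; filled points have a limma adjusted p under 0.05. Only HES1 is filled, at -0.46 and -0.43 in AsPC-1, while its PANC-1 intervals cross 0.

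NOTCH2 carried almost all of the signal of NOTCH2 and NOTCH3 together, 97.2% to 99.7% in AsPC-1 and 96.7% to 98.1% in PANC-1. This share leaves out NOTCH1, whose coding RNA could not be read, and NOTCH4, a receptor outside the 10 genes. NOTCH4 stood at 0.385 to 0.869 TPM in AsPC-1 and at 4.17 to 5.75 TPM in PANC-1. NOTCH2 (hg38 chromosome 1, 119911553 to 120100779, minus strand) stood in AsPC-1 at 6.32 and 5.58 TPM in mock, 4.93 and 6.01 with TAp63, and 6.34 and 5.32 with deltaNp63. The PANC-1 levels were 31.4 and 35.3 TPM in mock, 35.8 and 35.0 with TAp63, and 28.2 and 36.9 with deltaNp63. The 3 groups of each line overlapped, and every PANC-1 library lay above every AsPC-1 library. The differences from mock were -0.11 (95% interval -0.44 to 0.23) and -0.03 (-0.36 to 0.31) in AsPC-1, and 0.08 (-0.25 to 0.42) and -0.04 (-0.38 to 0.29) in PANC-1, for TAp63 and deltaNp63. NOTCH2 has near-identical partial copies, and the copy NOTCH2NLA was itself listed with a median TPM of 7.74 over the AsPC-1 libraries and 16.1 over those of PANC-1, so how reads were divided between them is uncertain.

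NOTCH3 (chromosome 19, 15159038 to 15200995, minus strand) was the lowest of the tested receptors. It stood in AsPC-1 at 0.18 and 0.155 TPM in mock, 0.0966 and 0.0296 with TAp63, and 0.0188 and 0.0141 with deltaNp63. Its PANC-1 values were 1.0 and 0.679 TPM in mock, 1.23 and 1.15 with TAp63, and 0.743 and 0.869 with deltaNp63. The AsPC-1 groups did not overlap, with mock highest and deltaNp63 lowest, but all 6 values were under 0.2 TPM, where a few reads set the level. The coding share differed too: 9.6% and 9.54% of NOTCH3 was assigned to coding transcripts in AsPC-1 mock, 26.0% in one TAp63 library, and all of it in the other TAp63 library and in both deltaNp63 libraries. The coding transcript ENST00000263388 itself stayed between 0.0141 and 0.0296 TPM in AsPC-1, while the retained-intron transcript ENST00000600841 reached 0.163 TPM, so the order of the sums is not that of the coding RNA. The differences from mock in AsPC-1 were -0.14 (-0.45 to 0.17) with TAp63 and -0.2 (-0.51 to 0.11) with deltaNp63. In PANC-1 both TAp63 libraries lay above both mock libraries, with a difference of 0.25 (-0.06 to 0.56; limma adjusted p = 1).

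Among the ligands, JAG1 made up 98.2% to 99.5% of the summed JAG1, JAG2 and DLL1 level in AsPC-1, but 54.0% to 63.8% in PANC-1, where JAG2 made up 32.2% to 42.4%. The sum itself was 34.6 to 47.4 TPM in AsPC-1 and 26.9 to 34.7 TPM in PANC-1. These are shares of gene sums. Coding transcripts held 86.1% to 96.7% of the JAG1 signal in PANC-1 but 37.3% to 49.6% of that of JAG2. The JAG2 share of the coding RNA in PANC-1 is therefore lower than its share of the sums. The shares also leave out other ligand genes, such as the ligand-like gene DLL3. DLL3 stood at 85.0 to 101 TPM in PANC-1 and at 0.0396 to 0.302 TPM in AsPC-1. JAG1 (chromosome 20, 10637684 to 10673999, minus strand), the Jagged ligand whose loss of function causes Alagille syndrome, stood in AsPC-1 at 45.9 and 47.0 TPM in mock, 43.9 and 43.4 with TAp63, and 34.4 and 39.4 with deltaNp63. Mock was highest and deltaNp63 lowest, and the 3 groups did not overlap. The difference from mock was -0.33 with deltaNp63 (-0.6 to -0.06; unadjusted p = 0.022, limma adjusted p = 0.108), which did not pass. It passed when AsPC-1 deltaNp63 replicate 2 was left out, at -0.42 (adjusted p = 0.048). With TAp63 the difference was -0.09 (-0.36 to 0.18). In PANC-1 JAG1 stood at 16.1 and 19.2 TPM in mock, 18.7 and 17.3 with TAp63, and 17.4 and 20.9 with deltaNp63, with all 3 groups overlapping. The PANC-1 differences were 0.03 (-0.24 to 0.3) and 0.11 (-0.16 to 0.38).

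JAG2 (chromosome 14, 105140982 to 105168824, minus strand), the second Jagged ligand, was near the floor in AsPC-1, at 0.783 and 0.317 TPM in mock, 0.438 and 0.711 with TAp63, and 0.16 and 0.245 with deltaNp63. PANC-1 libraries held 9.81 and 10.9 TPM in mock, 14.7 and 12.5 with TAp63, and 12.5 and 10.5 with deltaNp63. Both PANC-1 TAp63 libraries lay above both mock libraries, and the deltaNp63 libraries overlapped with mock. The difference with TAp63 in PANC-1, 0.36 (-0.03 to 0.75; unadjusted p = 0.0649), did not pass. That with deltaNp63 in AsPC-1 was -0.35 (-0.74 to 0.04; limma adjusted p = 0.208), and TAp63 and deltaNp63 in AsPC-1 differed by 0.38 (0 to 0.77; limma adjusted p = 0.628). Only 37.3% to 49.6% of the JAG2 signal in PANC-1 was assigned to its coding transcripts. The retained-intron transcript ENST00000546616 took 27.0% to 36.9% and ENST00000553051 took 14.5% to 27.9%, so the gene sum overstates the coding RNA.

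**Figure D3:**
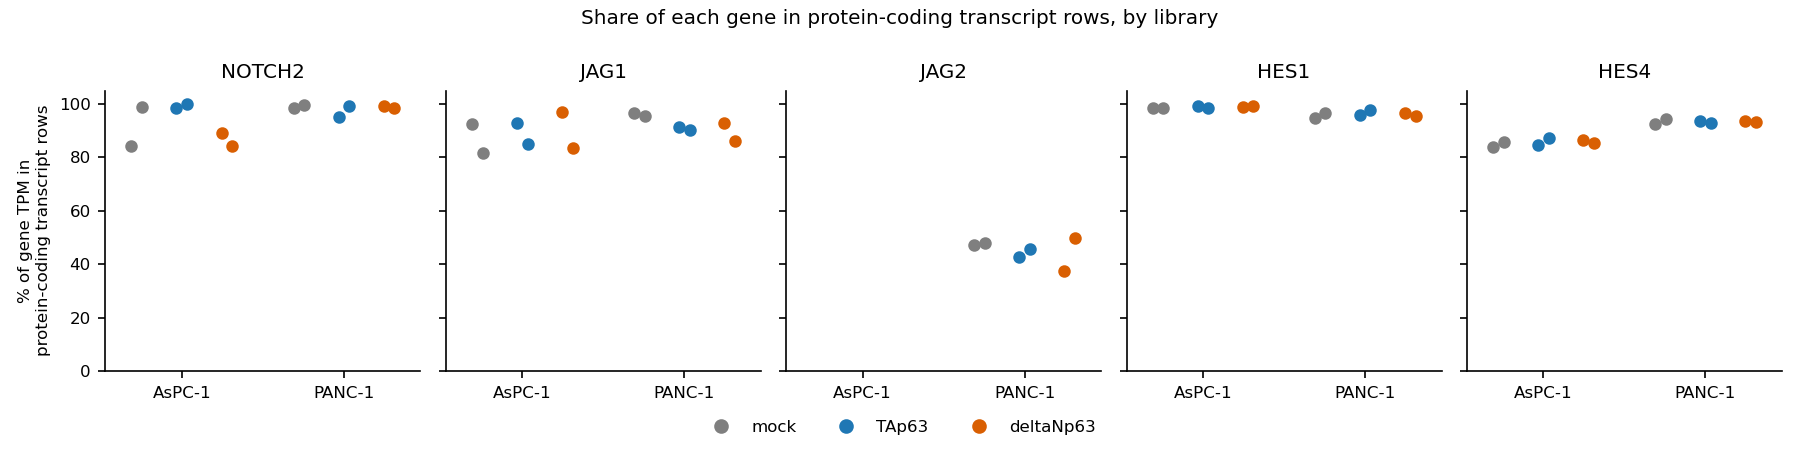
Percent of the gene-summed TPM that lies in protein-coding transcripts for 5 of the genes, with a point per library and colours for the construct; AsPC-1 points of JAG2 are left out because the gene is under 1 TPM there. JAG2 in PANC-1 lies between 37.3% and 49.6%, whereas HES1 lies between 94.7% and 99.2% in all libraries.

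DLL1 (chromosome 6, 170282206 to 170306565, minus strand), a Delta-like ligand, was low throughout. It stood in AsPC-1 at 0.0456 and 0.039 TPM in mock, 0.0266 and 0.104 with TAp63, and 0.0248 and 0.0249 with deltaNp63. The PANC-1 values were 0.995 and 1.15 TPM in mock, 1.27 and 1.21 with TAp63, and 0.804 and 1.31 with deltaNp63. Both PANC-1 TAp63 libraries were above both mock libraries, by 0.11 (-0.22 to 0.44), and every PANC-1 library was above every AsPC-1 library. DLL1 overlaps FAM120B on the opposite strand, which was listed at 3.96 to 25.8 TPM, and how reads of the overlap were assigned is not given in the sources used here.

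HES1 (ENSG00000114315, chromosome 3, 194136148 to 194138732, plus strand, overlapping no annotated gene) stood in AsPC-1 at 27.8 and 26.1 TPM in mock, 19.2 and 19.3 with TAp63, and 20.2 and 19.3 with deltaNp63. The 4 construct libraries lay close together, between 19.2 and 20.2 TPM, and below both mock libraries. The group means were 27.0 ± 1.2 TPM (SD, n = 2) in mock, 19.3 ± 0.0884 with TAp63 and 19.8 ± 0.647 with deltaNp63. HES1 fell by 0.46 on the log2 scale with TAp63 (SE 0.0822, 95% interval -0.65 to -0.28, limma adjusted p = 0.0387) and by 0.43 with deltaNp63 (SE 0.0822, -0.61 to -0.25, limma adjusted p = 0.0265). TAp63 and deltaNp63 differed by -0.03 (-0.22 to 0.15; adjusted p = 0.954), so that a difference between the constructs larger than 0.22 lies outside the interval. The protein-coding transcript held 98.5% to 99.2% of the HES1 signal in AsPC-1.

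In PANC-1 HES1 stood at 33.9 and 32.7 TPM in mock, 32.3 and 30.6 with TAp63, and 31.1 and 31.1 with deltaNp63. All 4 construct libraries again lay below both mock libraries, but by a small margin, at 94.5% and 93.5% of the mock mean. The differences were -0.08 (-0.26 to 0.1) and -0.09 (-0.28 to 0.09), with an adjusted p of 1 in limma for both. The test of the difference between the lines gave 0.38 for TAp63 (0.12 to 0.64; unadjusted p = 0.00821, limma adjusted p = 0.374) and 0.34 for deltaNp63 (0.08 to 0.6; limma adjusted p = 0.236). Neither passed, so the effect on HES1 is not shown to differ between AsPC-1 and PANC-1. Over the 9 genes 0 passed in either test of the difference between lines in limma, against 0.0745% of all genes for TAp63 and 0.582% for deltaNp63. At an unadjusted p under 0.05 the counts were 1 and 2 of the 9, beside 1540 and 2431 of all 14767 genes tested.

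The call on HES1 moved with scaling, with the samples fitted and with single libraries. In AsPC-1 the median log2 level over all genes tested was 3.67 to 3.68 in the mock libraries, 3.52 to 3.57 with TAp63 and 3.42 to 3.52 with deltaNp63. Setting these medians equal moved every difference from mock up by 0.13 for TAp63 and 0.21 for deltaNp63. HES1 then differed by -0.33 (limma adjusted p = 0.179) with TAp63 and -0.22 (adjusted p = 0.155) with deltaNp63. When only the 4 libraries of the groups compared entered the fit, the adjusted p was 0.344 for TAp63 and 0.363 for deltaNp63. Leaving out 1 library at a time gave an adjusted p between 0.0201 and 0.274 for TAp63, under 0.05 only without either AsPC-1 deltaNp63 library. For deltaNp63 it gave 0.0134 to 0.148. That call was lost without AsPC-1 mock replicate 1 (0.148), AsPC-1 mock replicate 2 (0.0768), AsPC-1 deltaNp63 replicate 1 (0.0706), or any 1 of the mock and TAp63 libraries of PANC-1 (0.0552 to 0.0591). The differences stayed between -0.51 and -0.33 for TAp63 and between -0.47 and -0.22 for deltaNp63.

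**Figure D4:**
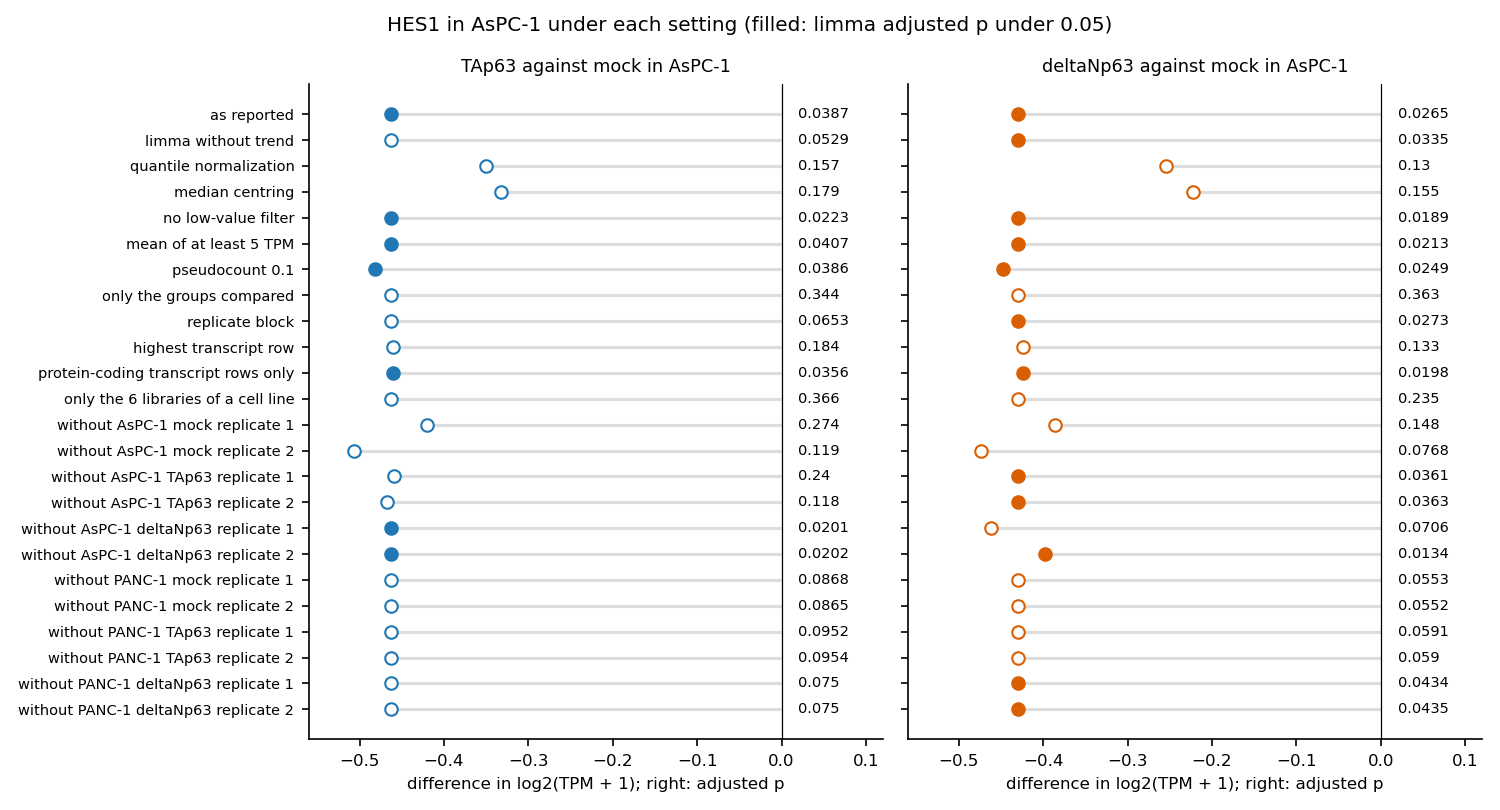
Difference of HES1 from mock in AsPC-1 in log2(TPM + 1), by setting, with the limma adjusted p at the right of each panel; filled points are under 0.05. All points lie left of 0, and 2 of the 12 fits that leave out a library pass for TAp63 and 5 of 12 for deltaNp63.

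The genes whose level followed HES1 most closely over the 6 AsPC-1 libraries were JRK (Pearson r = 0.999), ERAP2 (0.997) and CMTM8 (0.997) on the log2 scale. With 3 groups of 2 libraries these values describe a shared step between mock and construct libraries and no more.

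HES4, a HES family repressor, was the most abundant of the 10 genes. It stood in AsPC-1 at 64.0 and 109 TPM in mock, 68.0 and 88.5 with TAp63, and 83.8 and 63.5 with deltaNp63. PANC-1 values were 109 and 110.3 TPM in mock, 135 and 126 with TAp63, and 170.3 and 106 with deltaNp63. In AsPC-1 the replicates of a group differed more than the group means did, and so did the deltaNp63 replicates of PANC-1. The mock replicates of PANC-1 lay close together, and both PANC-1 TAp63 libraries lay above both mock libraries. The differences from mock were -0.11 (-0.71 to 0.5) and -0.19 (-0.8 to 0.41) in AsPC-1, and 0.25 (-0.35 to 0.85) and 0.29 (-0.31 to 0.9) in PANC-1. These intervals are the widest among the 9 genes, so a change as large as that of HES1 in AsPC-1 would not have been told from replicate error. HES4 made up 69.6% to 81.7% of the summed HES1, HES4 and HEY1 level in AsPC-1 and 75.1% to 83.6% in PANC-1.

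NRARP, which dampens Notch signalling and is induced by it, stood in AsPC-1 at 18.1 and 24.3 TPM in mock, 21.3 and 20.7 with TAp63, and 25.6 and 18.5 with deltaNp63. In PANC-1 it stood at 12.2 and 11.6 TPM in mock, 13.5 and 12.2 with TAp63, and 12.1 and 10.4 with deltaNp63. The AsPC-1 groups overlapped fully, and the differences from mock were 0 (-0.38 to 0.38) and 0.05 (-0.33 to 0.43) there and 0.1 (-0.28 to 0.48) and -0.09 (-0.46 to 0.29) in PANC-1. The interval for TAp63 in AsPC-1 does not reach the -0.46 of HES1 in the same libraries.

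HEY1, the target of the related HEY family, was low in both lines. It stood in AsPC-1 at 0.112 and 0.464 TPM in mock, 0.467 and 0.43 with TAp63, and 0.264 and 0.212 with deltaNp63. In PANC-1 it stood at 2.22 and 1.94 TPM in mock, 2.71 and 2.13 with TAp63, and 2.19 and 2.74 with deltaNp63. The PANC-1 groups overlapped, and the differences there were 0.15 (-0.23 to 0.52) and 0.17 (-0.21 to 0.54). The AsPC-1 differences were 0.18 (-0.19 to 0.56) and -0.04 (-0.42 to 0.33).

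The median difference of the 9 genes in AsPC-1 was -0.09 with TAp63 and -0.19 with deltaNp63, beside -0.08 and -0.12 over all genes tested, and in PANC-1 it was 0.11 and -0.02, beside 0 and -0.02. With TAp63 in AsPC-1, 3 of the 9 (NOTCH3, JAG1 and HES1) lay below mock in every library, against 35.4% of all genes, and with deltaNp63 5 of the 9, with JAG2 and DLL1 added, against 41.1%. Of these, NOTCH3, JAG2 and DLL1 were under 1 TPM in every AsPC-1 library. With TAp63 in PANC-1, 5 of the 9 (NOTCH3, JAG2, DLL1, HES4 and NRARP) lay above mock in every library, against 22% of all genes, and none of these 5 passed the test. NOTCH3 met the filter only with the TAp63 libraries counted, so its place among the 5 is in part set by the filter. For NRARP the highest mock and the lowest TAp63 value were both 12.2 TPM as rounded. With deltaNp63 in PANC-1, 1 of the 9, HES1, was apart from mock, against 27.1% of all genes. Both AsPC-1 TAp63 libraries lay above both deltaNp63 libraries for 5 of the 9 (NOTCH3, JAG1, JAG2, DLL1 and HEY1), against 19.6% of all genes, and all but JAG1 were under 1 TPM there. In PANC-1 with TAp63, 8 of 9 differences were positive as deposited, after median centring and after quantile normalization. Over all 14767 genes tested, 7313 were positive there as deposited. Negative differences as deposited in AsPC-1 numbered 9685 of the 14767 with TAp63 and 9909 with deltaNp63. In AsPC-1 the signs moved with scaling: with TAp63, 6 of 9 differences were negative as deposited, 4 of 9 after quantile normalization and 2 of 9 after median centring, which moves every gene alike. With deltaNp63 8 of 9 were negative as deposited, 6 of 9 after quantile normalization and 3 of 9 after median centring. The genes that changed sign under either scaling were NOTCH2, JAG1, HES4 and NRARP for TAp63 and NOTCH2, NOTCH3, DLL1, HES4 and HEY1 for deltaNp63.

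Between the mock libraries of the lines, 44.6% of all genes tested were higher in PANC-1, 27.9% were lower, and the groups did not overlap for 87.6%, so a difference there is common and is read gene by gene. Of the 5 genes that met the filter in both lines, NOTCH2, JAG1, HES1 and NRARP passed the test and HES4 did not. NOTCH2 was 5.61-fold higher on the TPM scale, with a log2 difference of 2.31 (1.97 to 2.64; limma adjusted p = 3.01e-07). For NOTCH3, JAG2, DLL1 and HEY1, which entered the test only because they are higher in PANC-1, the differences of 0.65, 2.89, 0.99 and 1.27 on the log2(TPM + 1) scale are a description with no test. JAG1 was 2.64-fold higher in AsPC-1, with a log2 difference of -1.36 (-1.62 to -1.09; limma adjusted p = 3.41e-06), and NRARP 1.78-fold higher in AsPC-1, with -0.77 (-1.15 to -0.39; limma adjusted p = 0.00212). HES1 was 1.23-fold higher in PANC-1, with 0.29 (0.11 to 0.48; limma adjusted p = 0.0085), but this did not pass after median centring (0.12, adjusted p = 0.24), after quantile normalization (0.17, adjusted p = 0.0861), or without AsPC-1 mock replicate 2 (0.25, adjusted p = 0.061) or PANC-1 mock replicate 1 (0.27, adjusted p = 0.0536). HES4 did not differ beyond its spread (0.39, -0.22 to 0.99; limma adjusted p = 0.22), but passed without AsPC-1 mock replicate 2 (0.77, adjusted p = 0.0317).

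Over all 12 libraries, every PANC-1 library lay above every AsPC-1 library for NOTCH2, NOTCH3, JAG2, DLL1, HES1 and HEY1, and below for JAG1 and NRARP. NOTCH3, JAG2, DLL1 and HEY1 met the filter only through PANC-1, so their separation is in part set by the filter. In the mock libraries alone the lines did not overlap for 87.6% of all genes tested. The share over all 12 libraries was not counted. HES4 overlapped between the lines. Ranked by group mean, NOTCH2 ran from PANC-1 TAp63 through PANC-1 mock and PANC-1 deltaNp63 to the AsPC-1 groups, and the only neighbours apart were PANC-1 deltaNp63 and AsPC-1 mock. For HES1 the order was PANC-1 mock, TAp63 and deltaNp63, then AsPC-1 mock, deltaNp63 and TAp63. In that order the neighbours that overlapped were the 2 PANC-1 construct groups and the 2 AsPC-1 construct groups.

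**Figure D5:**
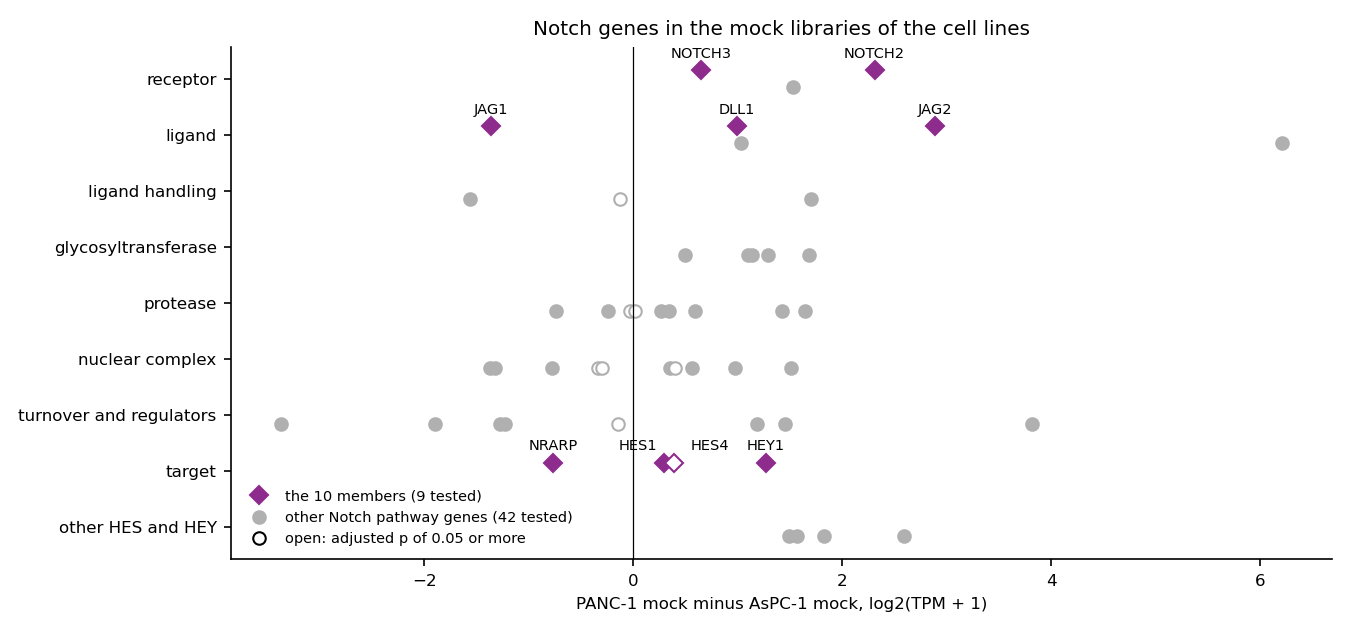
PANC-1 mock minus AsPC-1 mock in log2(TPM + 1) for 9 of the 10 genes (diamonds) and 42 other Notch pathway genes (circles), by role; open symbols have a limma adjusted p of 0.05 or more. Genes under 1 TPM in a line, such as JAG2, NOTCH3, DLL1 and HEY1 in AsPC-1, entered only through the other line; JAG2 and NOTCH2 lie farthest to the right among the diamonds and JAG1 farthest to the left.

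A further 49 genes of the pathway were counted by role, of which 42 were tested. With TAp63 in AsPC-1 1 of 42 fell, and with deltaNp63 in AsPC-1 5 of 42 fell, against the 0.609% and 6.51% of all genes tested, while none rose. In PANC-1 0 of 42 passed in limma with either construct. At an unadjusted p under 0.05 the counts were 0 and 1, beside 503 and 345 of all 14767 genes. Their median differences in AsPC-1 were -0.05 and -0.15 and in PANC-1 0.03 and -0.03, each within 0.05 of the median over all genes.

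DTX3L, a ubiquitin ligase of the Deltex family, stood in AsPC-1 at 41.5 and 39.3 TPM in mock, 22.9 and 24.7 with TAp63, and 15.7 and 18.6 with deltaNp63. The 3 groups did not overlap, and DTX3L fell by 0.74 with TAp63 (-0.99 to -0.48; limma adjusted p = 0.0206) and by 1.2 with deltaNp63 (-1.45 to -0.94; limma adjusted p = 0.000489). In PANC-1 it stood at 95.8 and 90.2 TPM in mock, 91.8 and 84.4 with TAp63, and 81.7 and 98.1 with deltaNp63, where the deltaNp63 libraries overlapped with mock. The effect of deltaNp63 differed between the lines by 1.14 (limma adjusted p = 0.0118), the only one of the 42 genes for which this test passed. The call with TAp63 was lost with no low-value filter, with only the groups compared, with the highest transcript of a gene and with only the 6 libraries of a line, and when either AsPC-1 mock library, either AsPC-1 TAp63 library or either PANC-1 TAp63 library was left out. The call on the difference between lines was lost when any mock library or PANC-1 deltaNp63 replicate 2 was left out, with only the groups compared and with the highest transcript. The count of the 42 genes that passed in that difference was higher without AsPC-1 deltaNp63 replicate 2. The share of all genes called in that fit is not given here. DTX3L overlaps PARP9, and how reads of the overlap were assigned is not given in the sources used here.

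LFNG, a Fringe glycosyltransferase that modifies Notch receptors, stood in AsPC-1 at 10.5 and 9.98 TPM in mock, 5.26 and 7.11 with TAp63, and 4.66 and 6.35 with deltaNp63. It fell by 0.8 with deltaNp63 (limma adjusted p = 0.0308), while the -0.66 with TAp63 did not pass (adjusted p = 0.123). FURIN, the protease that cleaves Notch receptors during their maturation, stood at 23.6 and 26.3 TPM in mock, 17.7 and 21.1 with TAp63, and 18.3 and 17.6 with deltaNp63, and fell by 0.45 with deltaNp63 (limma adjusted p = 0.039). MAML2, a Mastermind-like coactivator, stood at 7.97 and 6.81 TPM in mock, 6.55 and 6.2 with TAp63, and 4.06 and 5.12 with deltaNp63, and fell by 0.59 with deltaNp63 (limma adjusted p = 0.0379). DTX4, another Deltex gene, stood at 12.2 and 11.0 TPM in mock, 9.05 and 6.61 with TAp63, and 6.01 and 7.17 with deltaNp63, and fell by 0.73 with deltaNp63 (limma adjusted p = 0.0424). DTX4 overlaps the gene MPEG1. In each of these genes all 4 construct libraries lay below both mock libraries. The count of 5 was 1 after median centring or quantile normalization, 1 without a low-value filter, and 0 when only the groups compared were fitted. It moved in both directions when a library was left out. The share of all genes called in those fits is not given here, so such counts are not read as a result about these genes.

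In mock cells 25 of the 42 genes were higher in PANC-1, beside 44.6% of all genes tested, and 10 were lower, beside 27.9%. Genes under 1 TPM in a line, such as DLL3 and HEYL (the latter listed at 0 in all AsPC-1 libraries), entered only because they are higher in the other line, so these counts are a description. The ligand-like gene DLL3, singled out after its values were seen, stood at 85.0 to 101 TPM in PANC-1 and 0.0396 to 0.302 TPM in AsPC-1, a log2 difference of 6.21. In PANC-1 its TPM thus lay above that of JAG1, JAG2 and DLL1 in all 6 libraries.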

How the data were processed

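RNA-seq was done on 12 libraries, and the authors deposited TPM values for 153329 Ensembl transcripts, each column summing to 1000000. The aligner, quantifier, build and annotation are not given in the sources used here. Transcripts were paired with symbols through GENCODE v44 (hg38), which covered 139819 transcripts (91.2%) and 89.6% to 90.5% of the TPM of a library, and summed to 39099 genes. The remaining 13510 transcripts were left out. The log2(TPM + 1) values were computed from the deposited TPM with a pseudocount of 1.

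Genes of at least 1 TPM in at least 2 libraries (14767) were fitted with limma 3.58.1 (lmFit, eBayes with trend) in R 4.3.3, with a mean for each of 6 groups, 6 residual degrees of freedom and 9 contrasts. P-values are two-sided and adjusted by Benjamini-Hochberg within a contrast. Tables and figures used the data.table package (version 1.17.8), Python 3.11.15, pandas 2.3.3, numpy 2.4.6 and matplotlib 3.10.9.

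The 10 genes and the lists of pathway and marker genes were chosen with earlier results of these data known. All 10 genes are named, together with pathway genes that passed after a construct or in the difference between lines, TP63, overlapping genes or copies, and the 3 genes most like a member that passed. NOTCH4 is named as the remaining receptor. Alternatives were the spread model, scaling, low-value filter, pseudocount, samples fitted, replicate block, transcript in place of gene, and each library left out. Same-numbered libraries of a line deviated together with r between -0.0945 and 0.293, and with 2 pairs the numbers were not taken to pair samples.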

Additional observations from a re-analysis of the deposited data

Results flagged for a closer look

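For TP63 and DTX3L, the effect of deltaNp63 differed between the cell lines by limma's test of that difference. The rise of TP63 over mock was larger in PANC-1 than in AsPC-1 by 2.61 on the log2(TPM + 1) scale (1.81 to 3.41; limma adjusted p = 0.01), from 9.84 in PANC-1 and 7.23 in AsPC-1, and the mock level itself was lower in PANC-1. DTX3L fell in AsPC-1 by 1.2, and the difference between the lines was 1.14 (limma adjusted p = 0.0118). The call on DTX3L in this test was lost when any mock library or PANC-1 deltaNp63 replicate 2 was left out.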

How the results depend on the processing

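The count of the 9 genes that passed, 1 with TAp63 in AsPC-1, was 0 with limma without a trend, quantile normalization, median centring, only the groups compared, the highest transcript of a gene, or only the 6 libraries of a cell line, and 0 to 1 when a library was left out. With deltaNp63 in AsPC-1 the count of 1 was 0 under the same settings except limma without a trend, where it stayed 1, and 0 to 2 when a library was left out, 2 being reached without AsPC-1 deltaNp63 replicate 2, where JAG1 joined HES1. The fit on only the 6 libraries of a line, and that on protein-coding transcripts, were chosen after seeing the data. Between the mock libraries, where 72.5% of all genes tested differed, the count was 8. It includes NOTCH3, JAG2, DLL1 and HEY1, which entered only through PANC-1 and for which it is no test. The count was 5 with a mean of at least 5 TPM, where only 6 genes were tested. Under quantile normalization NOTCH3 (limma adjusted p = 0.111) and HES1 lost their calls, and under median centring HES1 did. In the other 6 comparisons the count was 0 under all settings run. With the replicate number as a block, the count was 0 for TAp63 in AsPC-1 (HES1 adjusted p = 0.0653 in limma) and 1 for deltaNp63 (0.0273), and no other count of the 9 genes moved; the labels give the libraries only a number in common. Of 1800 values of single genes, 34 lost their call, 2 gained one and 0 changed direction while called. Most of the 1800 had no call to lose. HES1 in AsPC-1 gave 17 of the 34 losses for TAp63 and 12 for deltaNp63, out of 23 settings for each construct. Apart from the tests dropped by the filter, the cause was not tested. Depth is unknown, and 2 libraries a group limit the precision.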
